A study of Homo sapiens with 6 samples.

Results

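The transcripts described here are those of NFE2L2, which encodes the transcription factor NRF2, and of 8 genes that NRF2 is known to drive: NQO1, HMOX1, GCLC, GCLM, TXNRD1, SRXN1, ME1 and SQSTM1. They were chosen by gene symbol, and all 9 were found among the 27945 genes of the deposited table, each annotated at 1 place. The data are 6 bulk RNA-seq libraries of HaCaT, a human epidermal keratinocyte line, and the p38α knockout is labelled MAPK14-null, after the gene of the p38α kinase. There were 2 libraries of knockout cells given IL-1α in PBS for 4 h and 1 of knockout cells given PBS for 4 h, set against 2 libraries of wild-type cells given IL-1α and 1 of wild-type cells given PBS, at the same times. IL-1α is an alarm cytokine that damaged keratinocytes release. The labels name neither the edit made in MAPK14 nor whether the knockout line is 1 clone, and they do not say that replicates were separate cultures, so p-values rest on a spread that may be technical. Values are RPKM, reads scaled to exon length and to library depth.

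NRF2 is held at a low level in resting cells because KEAP1, a sensor with reactive cysteines, hands it to the CUL3 ubiquitin ligase. Oxidants and electrophiles modify KEAP1, NRF2 then accumulates, pairs with small MAF proteins and binds antioxidant response elements (AREs) near genes for glutathione and thioredoxin chemistry, NADPH supply, quinone reduction and haem breakdown. In skin this programme guards keratinocytes against ultraviolet light and chemicals, and much of its control lies in the protein, which RNA-seq does not measure.

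Depth recovered from the values was 21889344 to 34967608 reads in the 3 knockout libraries and 16294075 to 18534912 reads in the 3 wild-type libraries, so depth did not overlap between the genotypes, and its part in the differences below was not tested. MAPK14 was still read in the libraries labelled knockout, at 11.0 and 7.41 RPKM with IL-1α and 11.3 RPKM without, against 13.3 and 14.8 RPKM with IL-1α and 14.4 RPKM without in wild type. A value per gene does not show a small deletion or frameshift. All 10 keratinocyte markers examined exceeded 10 RPKM in every library, but their summed level was 3763 to 4314 RPKM in knockout libraries against 6132 to 7119 RPKM in wild-type libraries. In 4 of the 10, KRT14, KRT17, SFN and DSG3, every knockout library lay below every wild-type one. Of the 12925 genes reaching 1 RPKM, 8.86% lay below in this way and 15.7% above. Those 4 markers summed to 1974 to 2595 RPKM in knockout against 4416 to 5365 RPKM in wild type. The other 6 markers overlapped, at 1530 to 1790 RPKM in knockout against 1716 to 1852 RPKM in wild type. The part of these 10 markers in the results below was not tested. Of 22 markers of fibroblasts, leukocytes, endothelium and melanocytes 17 stayed under 1 RPKM throughout, among them PTPRC, PECAM1 and MLANA. The other 5 were COL1A1, LUM, CD68, CDH5 and MITF, and the 2 highest reached 14.4 RPKM (CD68) and 11.8 RPKM (CDH5), each in a wild-type IL-1α library. The 6 leukocyte markers summed to 6.21 to 7.70 RPKM with IL-1α and 4.88 RPKM without in knockout, against 12.2 to 14.8 RPKM with IL-1α and 6.31 RPKM without in wild type, LYZ being at 0. The 4 endothelial markers summed to 1.90 to 10.5 RPKM with IL-1α and 3.24 RPKM without in knockout, against 11.5 to 12 RPKM with IL-1α and 1.83 RPKM without in wild type, PECAM1 being at 0. In the wild-type IL-1α libraries these 2 sums lay mostly in CD68 (14.4 and 11.3 RPKM) and CDH5 (11.4 and 11.8 RPKM). CD14 and VWF were each highest without stimulation in both genotypes, and the part of either list in the results was not tested.

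All 9 genes were transcribed in every library, at levels that differed widely between genes and little between libraries. SQSTM1 was the most abundant, at 108 to 175 RPKM over the 6 libraries, which placed its mean at the 97.4th percentile of the 12925 genes reaching 1 RPKM. NQO1 ranged from 41.1 to 66.1 RPKM and NFE2L2 from 47.7 to 57.8 RPKM, ranges that overlapped each other. SRXN1 (33.0 to 52.1 RPKM) and TXNRD1 (26.6 to 45.7 RPKM) overlapped as well. Below them came GCLM (15.6 to 25.7 RPKM), GCLC (10.8 to 22.3 RPKM) and ME1 (12.9 to 17.3 RPKM), again without separation. HMOX1 stood apart at the bottom, at 2.04 to 2.99 RPKM, the 20.6th percentile, so that 8 of the 9 members held at least 10 RPKM in every library. From the lowest to the highest library the spread was 2.06-fold in GCLC and 1.21-fold in NFE2L2, the widest and the narrowest of the 9.

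**Figure D1:**
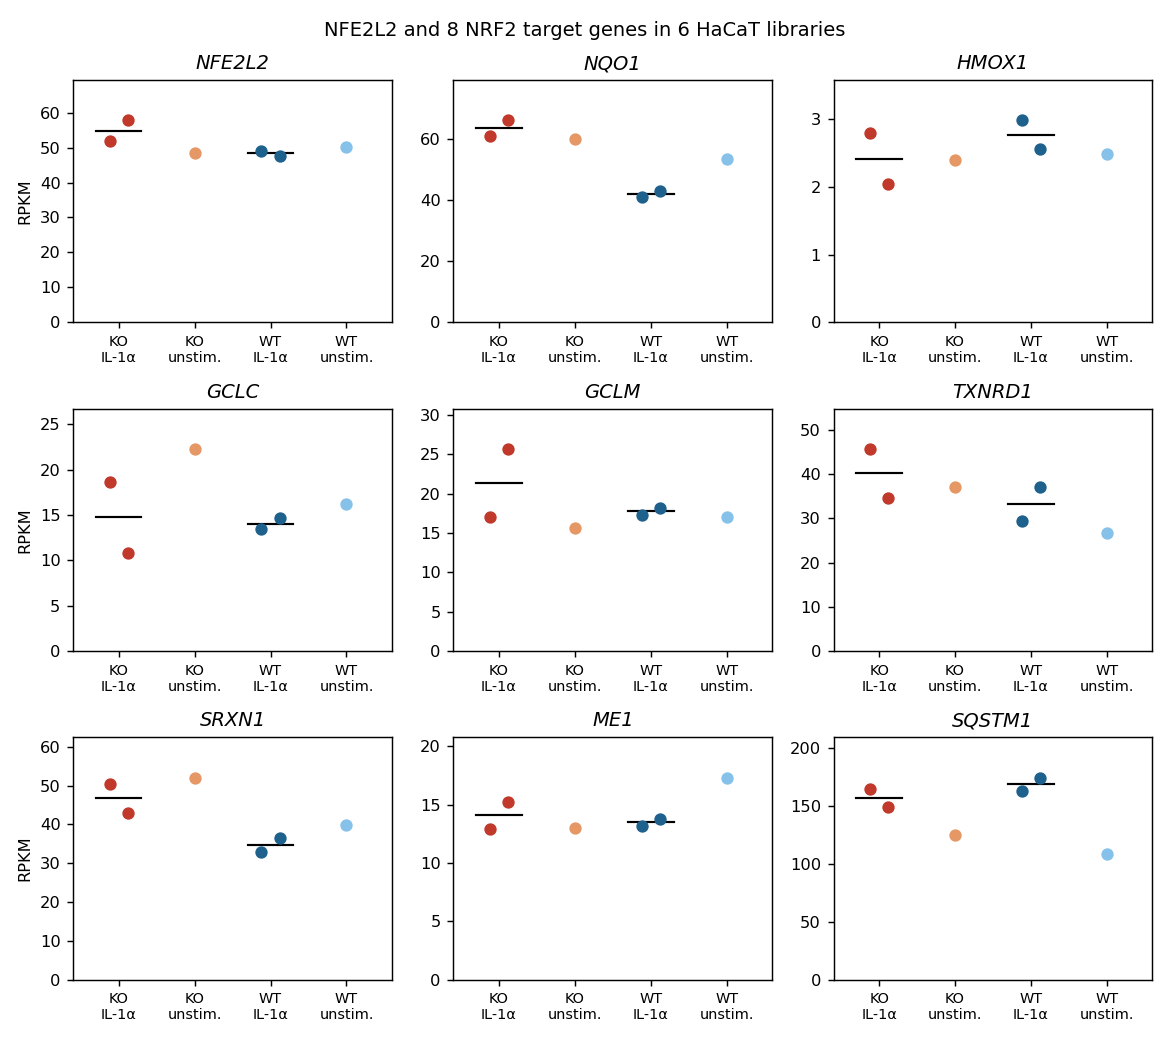
RPKM (vertical axes, from 0, a scale for each gene) of the 9 members in knockout (KO, red and orange) and wild-type (WT, blue) libraries with IL-1α or unstimulated. Each point is 1 library and each black line the mean of 2 libraries. The 3 knockout points of NQO1 (60.1 to 66.1 RPKM) and SRXN1 (43.0 to 52.1 RPKM) lie above their 3 wild-type points, while the other 7 genes overlap.

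Of the 9 genes, 8 had a RefSeq promoter window of 300 bases (250 before to 50 after the start of the gene, GRCh38.p14, a later build than the hg19 of the expression table). HMOX1 had none here. The windows were searched on both strands for the ARE core TGACNNNGC and for the AP-1 core TGANTCA, which can lie inside an ARE. An ARE match was found in 3 of the 8, GCLM, TXNRD1 and ME1, against 13.3% of 35116 promoter windows of the same length. An AP-1 match was found in 1 of the 8, against 7.71% of all windows. Those printed are the 3 with a match and, for comparison, those of NQO1 and SRXN1, the genes whose genotypes separated. All run 5′ to 3′ on the gene's strand, with ARE matches in capitals.
GCLM (chr1:93909381-93909680, minus strand): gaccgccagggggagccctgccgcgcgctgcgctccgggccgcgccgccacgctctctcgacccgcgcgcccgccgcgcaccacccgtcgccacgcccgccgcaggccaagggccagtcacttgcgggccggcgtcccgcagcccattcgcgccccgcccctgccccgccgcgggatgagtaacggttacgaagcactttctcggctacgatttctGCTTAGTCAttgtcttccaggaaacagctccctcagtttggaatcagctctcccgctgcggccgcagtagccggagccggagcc
TXNRD1 (chr12:104215529-104215828, plus strand): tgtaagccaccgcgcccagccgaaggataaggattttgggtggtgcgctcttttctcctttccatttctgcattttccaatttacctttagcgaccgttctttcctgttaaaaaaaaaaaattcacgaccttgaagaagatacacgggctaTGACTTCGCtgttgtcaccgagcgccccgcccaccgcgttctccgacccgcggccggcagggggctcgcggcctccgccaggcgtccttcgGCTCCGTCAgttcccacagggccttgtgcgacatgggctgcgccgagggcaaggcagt
ME1 (chr6:83431002-83431301, minus strand): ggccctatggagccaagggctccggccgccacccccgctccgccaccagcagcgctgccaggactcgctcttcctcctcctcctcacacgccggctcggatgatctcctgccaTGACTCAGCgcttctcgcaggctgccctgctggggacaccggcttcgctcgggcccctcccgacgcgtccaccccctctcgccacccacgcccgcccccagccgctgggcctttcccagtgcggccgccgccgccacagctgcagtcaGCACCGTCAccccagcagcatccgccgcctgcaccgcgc
NQO1 (chr16:69726511-69726810, minus strand): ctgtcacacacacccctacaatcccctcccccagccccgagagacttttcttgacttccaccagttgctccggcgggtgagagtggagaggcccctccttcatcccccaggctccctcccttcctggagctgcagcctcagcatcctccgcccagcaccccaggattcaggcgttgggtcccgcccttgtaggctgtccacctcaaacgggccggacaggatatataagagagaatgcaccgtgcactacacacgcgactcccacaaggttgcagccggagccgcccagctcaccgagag
SRXN1 (chr20:653151-653450, minus strand): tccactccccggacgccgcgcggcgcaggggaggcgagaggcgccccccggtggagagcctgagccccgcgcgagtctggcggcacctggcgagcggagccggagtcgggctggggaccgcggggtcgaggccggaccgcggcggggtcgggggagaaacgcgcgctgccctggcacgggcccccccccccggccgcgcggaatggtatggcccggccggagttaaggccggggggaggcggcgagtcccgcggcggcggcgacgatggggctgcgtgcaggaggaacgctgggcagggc
In GCLM the match, on the opposite strand, began at position -34 from the start of the gene, the first transcribed base being 1. TXNRD1 had matches at -99 and, on the opposite strand, at -8. In ME1 the match at -137 reads TGACTCAGC and therefore also holds the AP-1 core, and a further match lay on the opposite strand at 12. NQO1 and SRXN1 held neither motif in these windows, and nor did NFE2L2, GCLC and SQSTM1, which says nothing of sites elsewhere. A match is a run of letters and not a shown binding site.

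Between genotypes, the 2 members with separated values were NQO1 and SRXN1, both higher in knockout libraries, and neither passed the test across all genes. In limma 0 of 9 members passed at an adjusted p of 0.05 for knockout against wild type under IL-1α, where 0.155% of 12925 genes passed (20 genes). At an unadjusted p below 0.05 there were 2 members, NQO1 and SRXN1, against 14.9% of all genes. The 9 members had a median log2 difference of 0.18, 7 of them above 0. All genes tested had a median of 0.09, with 61.1% above 0. Both knockout IL-1α libraries lay above both wild-type ones in 3 members, NFE2L2, NQO1 and SRXN1, and below in 0, against 32.4% and 16.3% of all genes. In bulk RNA a change in the share of cells that express a gene and a change in RNA per cell cannot be told apart.

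NQO1, the quinone reductase commonly used as a readout of NRF2 (chromosome 16, 69743304 to 69760533, minus strand, hg19), read 61.1 and 66.1 RPKM in knockout IL-1α libraries and 60.1 RPKM in the unstimulated knockout library. In wild type it read 41.1 and 43.0 RPKM with IL-1α and 53.4 RPKM without. Every knockout library was thus above every wild-type library. Under IL-1α the means were 63.6 ± 3.52 RPKM in knockout and 42.1 ± 1.38 RPKM in wild type (SD, n = 2 each), a ratio of 1.51 and a log2 difference of 0.59 ± 0.15 (SE). This did not pass (limma adjusted p = 0.2), with an adjusted p of 0.127 to 0.932 over the other settings tried, although by unadjusted p (0.00711) it ranked 455th of all genes. Its 95% interval ran from 0.23 to 0.95, and the estimate kept its sign in all 15 alternative settings, from 0.45 to 0.65.

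SRXN1, sulfiredoxin, which restores over-oxidised peroxiredoxins (chromosome 20, 627268 to 634014, minus strand), read 50.5 and 43.0 RPKM in knockout IL-1α libraries and 52.1 RPKM in the unstimulated knockout library. Its wild-type values were 33.0 and 36.6 RPKM with IL-1α and 39.9 RPKM without. Here too the genotypes did not overlap, but the lowest knockout library lay only 1.08-fold above the highest wild-type one. The log2 difference under IL-1α was 0.42 ± 0.16 (SE, limma adjusted p = 0.323; 0.134 to 0.932 over the other settings), with means of 46.8 ± 5.27 RPKM in knockout and 34.8 ± 2.57 RPKM in wild type (SD, n = 2 each). For NQO1 and for SRXN1 an exact two-sided permutation test of 3 knockout against 3 wild-type libraries gave p = 0.1, the smallest that design allows. Full separation fixes this value, so it adds nothing to the separation already described. The test also takes libraries with and without IL-1α as exchangeable. Separation of this kind was common: all 3 knockout libraries lay above all 3 wild-type ones in 15.7% of all genes and below them in 8.86%, beside 2 and 0 of the 9 members.

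TXNRD1, the cytosolic thioredoxin reductase (chromosome 12, 104609557 to 104744085, plus strand), read 45.7 and 34.7 RPKM in knockout IL-1α libraries and 37.0 RPKM in the unstimulated knockout library. Its wild-type values were 29.3 and 37.0 RPKM with IL-1α and 26.6 RPKM without. The genotypes overlapped: knockout replicate 2 lay below wild-type replicate 2. The log2 difference under IL-1α was 0.27 ± 0.21 (SE, limma adjusted p = 0.568), and was 0.07 without knockout replicate 1, 0.47 without knockout replicate 2, 0.10 without wild-type replicate 1 and 0.44 without wild-type replicate 2. A small gene, EID3, lies inside the span of TXNRD1 on the same strand, at no more than 0.229 RPKM.

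NFE2L2 itself (chromosome 2, 178095031 to 178129859, minus strand) was the steadiest of the set. It read 51.8 and 57.8 RPKM in knockout IL-1α libraries and 48.5 RPKM in the unstimulated knockout library, against 48.9 and 47.7 RPKM with IL-1α and 50.1 RPKM without in wild type. Its log2 difference under IL-1α was 0.18 ± 0.15 (SE, limma adjusted p = 0.608), with a 95% interval from -0.19 to 0.55. Its transcript level says nothing of NRF2 protein, which these data do not hold.

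The 2 subunits of glutamate-cysteine ligase, which makes the first and rate-limiting step of glutathione synthesis, parted in the knockout IL-1α libraries. GCLC, the catalytic subunit (chromosome 6, 53362140 to 53409927, minus strand), read 18.7 and 10.8 RPKM there and 22.3 RPKM in the unstimulated knockout library, against 13.4 and 14.6 RPKM with IL-1α and 16.2 RPKM without in wild type. GCLM, the modifier subunit (chromosome 1, 94350756 to 94375154, minus strand), read 17.0 and 25.7 RPKM and, unstimulated, 15.6 RPKM in knockout, against 17.3 and 18.2 RPKM with IL-1α and 17.0 RPKM without in wild type. Knockout replicate 2 thus had the lowest GCLC and the highest GCLM of the 6 libraries. The 2 knockout replicates differed by -0.76 in GCLC and 0.58 in GCLM on the log2 scale (replicate 2 minus replicate 1), where the median absolute difference over 6063 genes averaging at least 10 RPKM was 0.21. Of those genes 4.4% were as far apart as GCLC, the member with the largest difference. The median absolute difference over the members was 0.23. The genotype differences of GCLC and GCLM depended on which libraries were kept. The log2 difference of GCLC under IL-1α was 0.02 ± 0.27 (SE, limma adjusted p = 0.981), and was -0.36 without knockout replicate 1, 0.40 without knockout replicate 2 and -0.04 without wild-type replicate 1. That of GCLM was 0.23 ± 0.22 (adjusted p = 0.657), and was 0.52 without knockout replicate 1 and -0.06 without knockout replicate 2.

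ME1, the cytosolic malic enzyme that yields NADPH (chromosome 6, 83920110 to 84140938, minus strand), read 12.9 and 15.2 RPKM in knockout IL-1α libraries and 13.0 RPKM in the unstimulated knockout library. In wild type it read 13.1 and 13.8 RPKM with IL-1α and 17.3 RPKM without, so that the unstimulated wild-type library was the highest of the 6. HMOX1, haem oxygenase 1 (chromosome 22, 35777060 to 35790207, plus strand), read 2.80 and 2.04 RPKM with IL-1α and 2.40 RPKM without in knockout, against 2.99 and 2.56 RPKM with IL-1α and 2.49 RPKM without in wild type. These values rest on 66 to 133 reads per library, the thinnest of the set, and overlap throughout. Under IL-1α the log2 difference was 0.06 ± 0.17 for ME1 (SE, limma adjusted p = 0.893) and -0.17 ± 0.23 for HMOX1 (limma adjusted p = 0.756). HMOX1 was at 0.02 without knockout replicate 2, and ME1 at -0.06. Over the 9 members the 95% intervals of the genotype difference under IL-1α reached from -0.73 (HMOX1) to 0.95 (NQO1), so each excluded a 2-fold difference, 1 on this log2(RPKM + 0.5) scale, within the spread of these replicates.

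**Figure D2:**
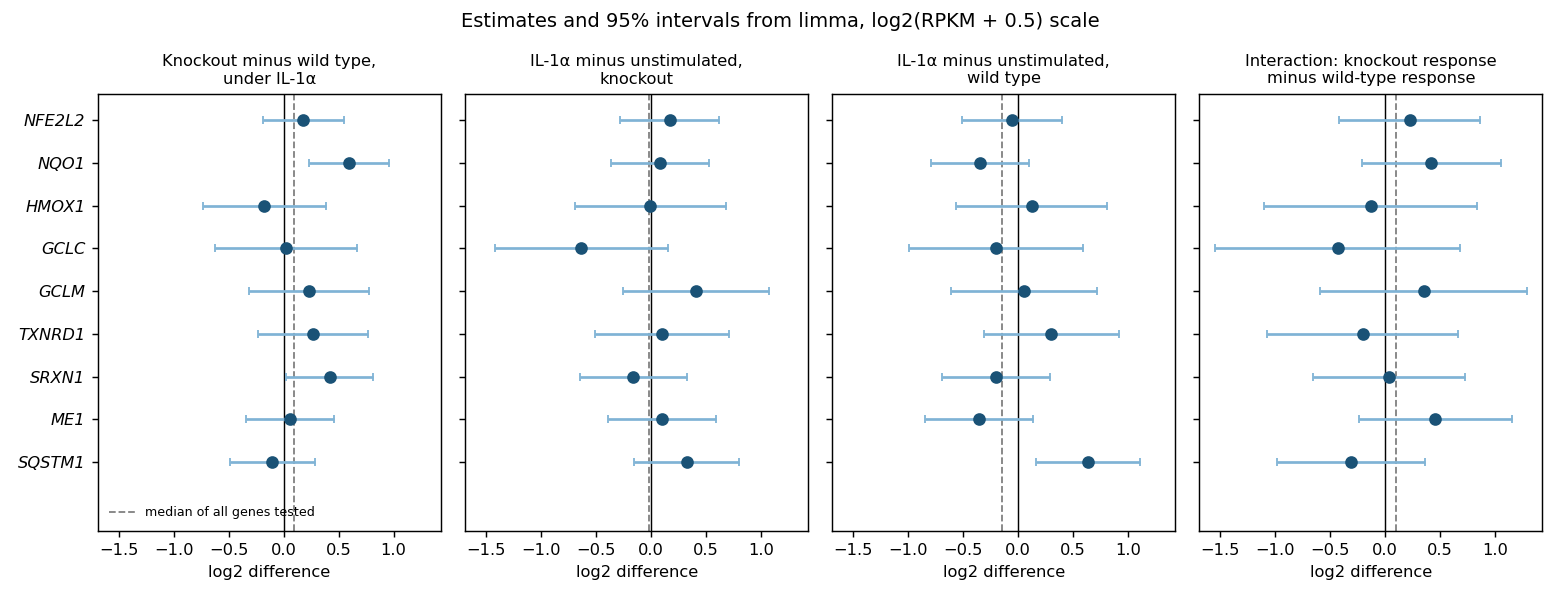
Log2 differences of the 9 members on the log2(RPKM + 0.5) scale for 4 contrasts, with 95% intervals from limma (bars), a solid line at 0 and a dashed line at the median of all genes tested. The intervals of NQO1 and SRXN1 under IL-1α in the first panel and of SQSTM1 in the third lie above 0, and no member passed after adjustment over all genes.

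Without stimulation the genotypes were compared by size alone, with 1 library each. The knockout over wild-type read ratio was 1.39 for TXNRD1 (95% exact interval 1.32 to 1.47), 1.38 for GCLC (1.28 to 1.48), 1.30 for SRXN1 (1.24 to 1.38), 1.15 for SQSTM1 (1.12 to 1.19) and 1.12 for NQO1 (1.07 to 1.18). It was 0.967 for NFE2L2 (0.92 to 1.02), 0.964 for HMOX1 (0.712 to 1.32), 0.917 for GCLM (0.86 to 0.979) and 0.752 for ME1 (0.694 to 0.814). These intervals cover counting error only and say nothing of how cultures vary. Of the 9 members 0 reached 2-fold, as 6.53% of all genes did. Their median log2 difference was 0.17, with 5 above 0, beside -0.01 over all genes, with 48.5% above 0. NQO1, the member with the largest difference under IL-1α (log2 0.59), had a log2 difference of 0.17 here, and GCLC, at 0.02 under IL-1α, had 0.45. The sizes moved with scaling. After quantile normalization NQO1 was at 0.35, SQSTM1 at 0.46 in place of 0.21, and NFE2L2 at 0.13 in place of -0.05. With the length trend removed GCLM was at -0.32 in place of -0.12, and HMOX1 at 0.16 in place of -0.04.

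The IL-1α response was sought in each genotype, and in wild type SQSTM1 had the largest estimate of the 9 members. SQSTM1, the autophagy receptor p62 that can also bind KEAP1 (chromosome 5, 179234003 to 179265077, plus strand), read 165 and 150 RPKM in knockout IL-1α libraries, against 125 RPKM in the unstimulated knockout library. In wild type it read 163 and 175 RPKM with IL-1α, against 108 RPKM without. Both stimulated libraries were above the unstimulated one in each genotype. The mean with IL-1α was 1.26 times the unstimulated value in knockout (log2 0.33 ± 0.20 SE, limma adjusted p = 1) and 1.56 times in wild type (0.64 ± 0.20 SE, limma adjusted p = 0.195; 0.144 to 0.734 over the other settings). The wild-type value had an unadjusted p of 0.0166 and a 95% interval from 0.16 to 1.11. MRNIP, on the other strand, overlaps SQSTM1 over 812 bases and read 9.48 to 13.9 RPKM, and whether the counting used strand is not given in the sources used here. Between genotypes under IL-1α SQSTM1 differed by -0.10 ± 0.16 (SE, limma adjusted p = 0.796).

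The other members had estimates of either sign. In knockout cells 0 of 9 members passed, where 0.0696% of all genes did (9 genes), and 0 had an unadjusted p below 0.05, against 3.58% of all genes. In wild-type cells 0 of 9 passed, where 0.217% of all genes did (28 genes), and 1, SQSTM1, had an unadjusted p below 0.05, against 18.1% of all genes. The members' median response was 0.10 in knockout (6 of 9 above 0) and -0.05 in wild type (4 of 9 above 0). Over all genes it was -0.02 in knockout (47.2% above 0) and -0.14 in wild type (37% above 0). NFE2L2, at -0.05 in wild type, turned to 0.11 after median-of-ratios rescaling, which brought the wild-type median of all genes to 0.00. GCLC read below its unstimulated library in both IL-1α libraries of each genotype (log2 -0.63 ± 0.32 in knockout, -0.20 ± 0.32 in wild type, SE), as did SRXN1 (-0.16 ± 0.20 in knockout, -0.20 ± 0.20 in wild type), a pattern seen in 25.9% of all genes. Along with SQSTM1, GCLM read above in both (0.41 ± 0.27 in knockout, 0.06 ± 0.27 in wild type), as did 14.1% of all genes. The GCLC value in knockout was -1.01 without replicate 1 and -0.25 without replicate 2. NQO1 read slightly above its unstimulated library in both knockout IL-1α libraries and below it in both wild-type ones (0.08 ± 0.18 in knockout, -0.34 ± 0.18 in wild type). The wild-type fit gave 0.30 ± 0.25 for TXNRD1, -0.35 ± 0.20 for ME1 and 0.12 ± 0.28 for HMOX1, and the knockout fit 0.10 ± 0.25, 0.11 ± 0.20 and -0.005 ± 0.28 (SE).

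Whether the response differed between genotypes was tested by the interaction, knockout response minus wild-type response. In limma 0 of 9 members passed and 0 had an unadjusted p below 0.05, where 0% of all genes passed and 4.39% had an unadjusted p below 0.05. The median was 0.04 over the members, with 5 above 0, and 0.10 over all genes, with 60.4% above 0. The largest estimates were 0.46 ± 0.29 for ME1, -0.43 ± 0.46 for GCLC and 0.42 ± 0.26 for NQO1 (SE, adjusted p = 0.966 each). NQO1 and NFE2L2 (0.23 ± 0.26) lay on opposite sides of their unstimulated library in the 2 genotypes, but their intervals ran from -0.21 to 1.05 and from -0.41 to 0.86. The share of all genes with this pattern was not counted. The interval of GCLC, from -1.55 to 0.69, leaves a difference in response of more than 2-fold within its range.

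Across the 6 libraries the members did not follow a single profile. Of 36 pairs 20 had a positive Pearson correlation of log2 values and 16 a negative one, with a median of 0.07 (n = 6 libraries that share genotype and depth, a description only). NFE2L2 and GCLM (0.86) and NQO1 and SRXN1 (0.84) were the most alike, and GCLC and GCLM (-0.84) the least. For GCLC and TXNRD1, the 2 members of widest range, the most similar of 1944 other genes reaching 5 RPKM and spanning 1 log2 unit were sought. For GCLC these were BTBD2, FYB1 and TEAD2, each at 0.98. TEAD2 read 7.83 and 3.04 RPKM with IL-1α and 8.91 RPKM without in knockout. In wild type it read 3.72 and 4.86 RPKM with IL-1α and 5.26 RPKM without. Its lowest value was in knockout replicate 2, as in GCLC, a likeness that a search for high correlation selects for. For TXNRD1 they were KIF3C at 0.98, and AKAP2 and PALM2-AKAP2 at 0.97 each, the last pair being overlapping genes that share reads.

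The wider antioxidant system was described through 8 lists of 112 genes, of which 102 reached 1 RPKM. For knockout against wild type under IL-1α 1 gene of the 102 passed as higher and 0 as lower, beside 0.155% of all genes. Their median log2 difference was 0.11, beside 0.09 over all genes. Of the 102 genes 62 were above 0, beside 61.1% of all genes. The lists were drawn up with earlier results of these samples known. The 1 was TXNIP, an inhibitor of thioredoxin, in the list of thioredoxin and peroxiredoxin genes (15 genes, 10 above 0, median 0.10). TXNIP read 27.2 and 33.3 RPKM with IL-1α and 31.3 RPKM without in knockout, against 5.78 and 7.0 RPKM with IL-1α and 24.2 RPKM without in wild type. The 2 wild-type IL-1α libraries were the lowest of the 6, and the log2 difference was 2.16 ± 0.18 (SE, limma adjusted p = 0.0345). The call was lost without any 1 IL-1α library, where the estimate ran from 2.01 to 2.30. It was also lost with no filter on low values (limma adjusted p = 0.291), without the variance trend (0.0531) and in the additive fit of genotype and stimulation (0.0539). The interaction of TXNIP was 1.79 ± 0.32 (SE, limma adjusted p = 0.966). For the IL-1α response 1 gene passed in wild type and 0 in knockout, beside 0.217% and 0.0696% of all genes. It was SOD2, the mitochondrial superoxide dismutase and a known NF-κB target, which read 95 and 133 RPKM with IL-1α, against 20.3 RPKM without, in wild type (2.44 ± 0.27 SE, limma adjusted p = 0.0446). This call was lost without any 1 IL-1α library, at an adjusted p of 0.075 to 0.734. In knockout SOD2 read 126 and 153 RPKM with IL-1α, against 30.7 RPKM without (2.16 ± 0.27 SE, limma adjusted p = 0.0928), and the interaction was -0.28 ± 0.38 (SE, limma adjusted p = 0.966). The other 5 measured genes of that list of superoxide and peroxide enzymes were below 0 in both responses, none passing.

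The regulators of NRF2 had a median genotype difference of 0.06 under IL-1α, 9 of 15 above 0, none passing. MAFK, a small MAF partner of NRF2, averaged 24.2 ± 2.31 RPKM in knockout and 41.8 ± 4.89 RPKM in wild type (SD, n = 2 each; -0.78, limma adjusted p = 0.179). The endoplasmic reticulum ubiquitin ligase SYVN1 averaged 16.1 ± 1.17 RPKM in knockout and 23.5 ± 2.78 RPKM in wild type (-0.52, limma adjusted p = 0.257). Of the 19 glutathione genes measured 12 were above 0 (median 0.29), beside 61.1% of all genes, none passing. GSR, glutathione reductase, averaged 27.5 ± 2.23 RPKM in knockout and 15.9 ± 3.46 RPKM in wild type (0.78, limma adjusted p = 0.2), and its unstimulated values were 32 RPKM in knockout and 15.3 RPKM in wild type. CHAC1, which degrades glutathione, averaged 4.39 ± 2.62 RPKM in knockout and 17.0 ± 5.38 RPKM in wild type (-1.91, limma adjusted p = 0.179). In GSR all 3 knockout libraries lay above all 3 wild-type ones, and in CHAC1 and SYVN1 below them, none of these genes passing. Of the genes named below, IDH1, IDH2, CBR3 and TRIM16L also had all 3 knockout libraries above. Over all genes 15.7% lay above and 8.86% below in this way. The named genes were chosen for a large genotype difference under IL-1α, so their separation partly follows from that choice. Separation was not counted over the 102 genes of the lists.

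The remaining lists had no passing gene in any of the 4 tested contrasts. The 8 NADPH-supply genes had a median of -0.06, with IDH1 at 0.68 and IDH2 at 0.74, both isocitrate dehydrogenases (limma adjusted p = 0.198 and 0.206). Of 9 haem and iron genes 7 were above 0 (median 0.42), beside 61.1% of all genes. The porphyrin transporter ABCB6 averaged 6.62 ± 0.0608 RPKM in knockout and 4.18 ± 0.116 RPKM in wild type (0.60, limma adjusted p = 0.222), and the ferritin heavy chain FTH1, whose reads may be shared with its pseudogenes, lay at -0.60 (limma adjusted p = 0.369). Of 18 detoxification genes 12 were above 0 (median 0.33), beside the same 61.1% of all genes. The carbonyl reductase CBR3 was at 0.87 (limma adjusted p = 0.161) and TRIM16L, a TRIM-family gene, at 0.94 (limma adjusted p = 0.173). The 12 autophagy receptors and partners had a median of -0.09, with NBR1, a receptor related to SQSTM1, at 0.33 (limma adjusted p = 0.469) and GABARAPL1, an LC3-like protein, at -0.39 (limma adjusted p = 0.694). GABARAPL1 read 33.5 and 12.5 RPKM in knockout cells with IL-1α, and its difference was 0.31 without knockout replicate 2.

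In the other comparisons several lists had medians of another sign or size. Without stimulation the median knockout minus wild-type difference was -0.01 over all genes, with 48.5% above 0. Over the 102 genes it was -0.09, with 47 above 0. It was -0.19 for the glutathione list (6 of 19 above 0), -0.49 for thioredoxin and peroxiredoxin genes (5 of 15 above 0), 0.11 for haem and iron genes (5 of 9) and 0.07 for detoxification genes (10 of 18). Of the 102 genes 9 were at least 2-fold apart there, beside 6.53% of all genes: NFE2L3, GSR and GGT1 were higher in knockout, and RBX1, CHAC1, PRDX1, GLRX2, SESN2 and AKR1A1 lower, in 1 library each. Those 9 are named because they reached that fold. Over all genes 313 reached it as higher and 531 as lower, but 350 and 277 with the length trend removed. Whether the 9 kept their fold under that setting was not tested. The unstimulated genotype difference and the wild-type IL-1α response both subtract the 1 unstimulated wild-type library, so they are not independent. Over all genes the wild-type response had a median of -0.14, with 37% above 0. Over the 102 genes its median was -0.38, with 26 above 0. It was -0.67 for thioredoxin and peroxiredoxin genes (0 of 15 above 0), -0.64 for the glutathione list (3 of 19), -0.48 for haem and iron genes (2 of 9), -0.39 for detoxification genes (5 of 18) and -0.25 for NADPH-supply genes (0 of 8), none of these genes passing. The regulators of NRF2 were at 0.32 (12 of 15 above 0). In knockout the same lists lay between -0.18 (glutathione) and 0.10 (regulators), with a median of -0.08 over the 102 genes. List medians were not recomputed under other scalings. Median-of-ratios rescaling raised the wild-type response over all genes, as given above.

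**Figure D3:**
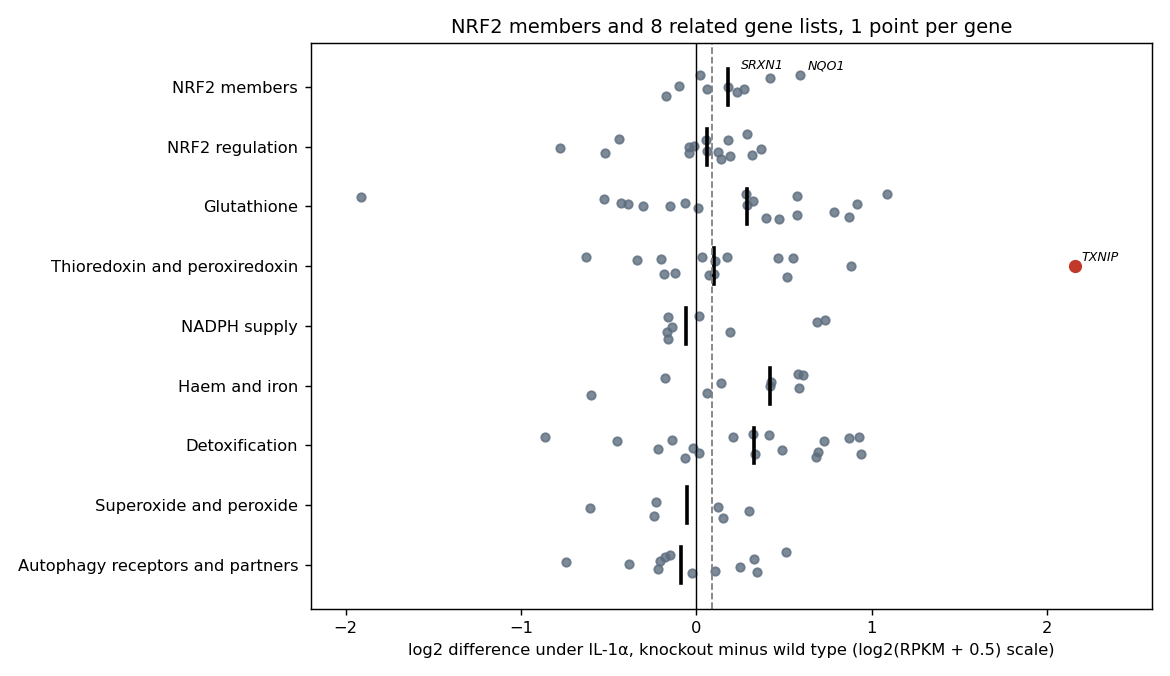
Log2 difference of knockout minus wild type under IL-1α (horizontal axis, log2(RPKM + 0.5) scale) for the 9 members and the 102 measured genes of 8 related lists, 1 point per gene, scattered vertically for legibility. Thick ticks are list medians, the dashed line the median of all genes (0.09), and the red point, TXNIP at 2.16, the 1 gene that passed in limma.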

How the data were processed

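RNA went through TRIzol and RNeasy into Illumina stranded mRNA libraries, per the labels' protocols. Per the submitters' processing notes, bcl2fastq (2.20.0.422), STAR and HOMER were used on hg19. Per the file headers, HOMER counted exon reads with 1 line per gene and the authors deposited RPKM (the columns say FPKM). The strand setting is not given in the sources used here, and coordinates are those of the table. Depth was taken as the number of reads that made values of 0.02 to 1 RPKM whole within 0.1 read, which held for 100% of those whose rounding allowed the check. Rebuilt reads served for read ratios and voom only.

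The 12925 genes whose highest library reached 1 RPKM entered limma (3.58.1; R 4.3.3) on the log2(RPKM + 0.5) scale, which understates changes of low genes. Each group had its own mean, the variance prior followed the mean level, and p-values were adjusted over all genes (Benjamini-Hochberg, threshold 0.05). The unstimulated groups hold 1 library each, so the spread came from the 2 IL-1α groups (2 residual and 4.2 prior degrees of freedom). The unstimulated genotypes were compared by fold alone. The members, lists, tests and settings were chosen with earlier results of these data known.

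All 9 members are described. Of each related list the text names genes that passed, at most 4, and otherwise the 2 with the largest genotype difference under IL-1α among those averaging at least 5 RPKM. Genes most like a member were the 3 of highest correlation.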

Additional observations from a re-analysis of the deposited data

How the results depend on the processing

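In every alternative setting tried 0 of the 9 members passed in any tested contrast and 0 reached 2-fold without stimulation. NQO1 and SRXN1 kept their sign for knockout against wild type under IL-1α in all 15 settings, and SQSTM1 for the IL-1α response in both genotypes in all 14. The counts over all genes were not stable. For the IL-1α response in knockout, 9 genes in the report became 5 with a pseudocount of 1, 65 without a filter on low values, 49 with at least 5 RPKM required, 4 without the variance trend, 2 with voom weights and 0 without any 1 IL-1α library. For wild type, 28 became 49 without the filter, 162 at 5 RPKM, 53 after median-of-ratios rescaling, 11 with voom, 92 with the length trend removed and 0 to 46 without 1 library. For knockout against wild type under IL-1α, 20 became 7 with a pseudocount of 0.1, 0 without the filter, 88 at 5 RPKM, 13 with quantile normalization, 0 without the variance trend, 55 with voom, 39 with the length trend removed, 343 in the additive fit of genotype and stimulation and 0 without any 1 library. For the interaction, 0 became 87 without the filter and was 0 with voom. For the unstimulated genotypes, 844 genes at 2-fold became 508 at 5 RPKM, where fewer genes enter. With the length trend removed, 313 higher and 531 lower became 350 higher and 277 lower. The cause of the other changes was not tested.

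The following estimates changed sign. Under median-of-ratios rescaling, quantile normalization and length-trend removal, in that order, the knockout response of HMOX1 was 0.0231, 0.0474 and 0.0255, the wild-type response of NFE2L2 0.11, 0.11 and 0.0514, the genotype difference under IL-1α of GCLC -0.0928, -0.0665 and -0.10 and of ME1 -0.0552, -0.023 and -0.0531, and the interaction of SRXN1 -0.0875, -0.13 and -0.0553. In the additive fit ME1 was at -0.0947 and SQSTM1 at 0.00055. Without 1 IL-1α library the knockout response ran from -0.19 to 0.18 for HMOX1, from -0.0928 to 0.30 for TXNRD1 and from -0.00717 to 0.22 for ME1. The genotype difference ran from -0.36 to 0.0156 for HMOX1, from -0.36 to 0.40 for GCLC, from -0.0601 to 0.52 for GCLM, from -0.0556 to 0.17 for ME1 and from -1.08 to 0.31 for GABARAPL1, and the interaction from -0.32 to 0.0597 for HMOX1 and from -0.0748 to 0.15 for SRXN1. In these fits only 1 group keeps a replicate, so the lone sample is taken to vary as that group does. Of the list genes, TXNIP passed for the genotype difference in 8 of 15 settings, CHAC1 in 3, GSR and CBR3 in the additive fit only, and SOD2 for the wild-type response in 5 of 14 and for the knockout response in 2.

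The IL-1α libraries carry replicate numbers in both genotypes, but same-numbered libraries did not deviate together (correlation 0.0086 across genes), so they were not treated as pairs. With the replicate block 18 genes passed for the response in knockout, 81 in wild type, 58 for the genotype difference under IL-1α and 0 for the interaction, with 0 members in each.

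Without stimulation, where no test was possible, quantile normalization moved NFE2L2 to 0.13, NQO1 to 0.35, TXNRD1 to 0.58, SRXN1 to 0.53 and SQSTM1 to 0.46, and removal of the length trend moved GCLC to 0.34, GCLM to -0.32, TXNRD1 to 0.35 and HMOX1 to 0.16.

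HMOX1, at 66 to 133 reads per library, has the widest counting error of the members, and was left out where 5 RPKM was required.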
